A study of Mus musculus with 2 samples.

Results

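The 10 genes described here, Bcl2, Bcl2l1, Mcl1, Bax, Bak1, Bbc3, Pmaip1, Bid, Bad and Bcl2l11, encode central members of the BCL-2 family, which decides whether a stressed cell keeps its mitochondria intact or dies. They were chosen by name: every non-control spot that the array design assigned to one of these symbols was taken, whatever its value. This gave 22 of the 56605 non-control probes and 10 of 37067 gene names, and all 10 genes were measured on both arrays, among 26528 genes in all. Both samples were total RNA of the cochlea from female mice of the inbred strain C57BL/6, 7 weeks old. The noise group had been exposed to intense noise for 2 hours and was dissected 3 hours later, and the baseline group had no noise exposure. Each group had 1 array, so every value below compares 2 samples and none could be tested across animals. The labels used here do not give the number of mice behind a sample, and in RNA of a whole tissue fewer cells of a type and less RNA per cell cannot be told apart.

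The family works through contact between its own members. Pro-survival proteins such as BCL-2, BCL-XL and MCL-1 hold the effectors BAX and BAK in check, and the small BH3-only proteins, which are switched on by DNA damage, loss of growth factors or other stress, either occupy the pro-survival proteins or engage the effectors directly. Once released, BAX and BAK permeabilise the outer mitochondrial membrane, and the cytochrome c that escapes starts the caspase cascade. In the cochlea this intrinsic route is one of the known ways in which hair cells die after acoustic overstimulation.

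The probes are DNA oligonucleotides of 60 bases, and 4 of them, from pro-survival and pro-death genes, are shown as examples. The Bax and Bcl2 probes shown were those with the highest log2 ratio of their gene, 1.35 and 0.78. Coordinates are on mm9, per the file headers. The Bax probe lay on the minus strand at chr7:52721469-52721624, so its 60 bases covered 156 genomic bases and crossed a splice junction. The Bcl2 probe lay on the minus strand at chr1:108608970-108609029, and the Bcl2l1 probe on the minus strand at chr2:152655185-152655244. The Bcl2l11 probe lay on the plus strand at chr2:127972893-127983988, a stretch of 11096 genomic bases, and so also crossed a junction. The annotation of that build was not used here, so positions in exons or untranslated regions are not given.
Bax: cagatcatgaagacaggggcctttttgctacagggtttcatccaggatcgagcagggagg
Bcl2: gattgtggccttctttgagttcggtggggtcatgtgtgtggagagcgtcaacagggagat
Bcl2l1: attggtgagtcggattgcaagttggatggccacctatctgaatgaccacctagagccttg
Bcl2l11: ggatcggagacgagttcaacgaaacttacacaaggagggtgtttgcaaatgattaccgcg

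Bax, the effector that forms pores in the outer mitochondrial membrane, was the one member at least 2-fold apart, and it was higher after noise. The splice-junction probe shown above had a processed signal, in scanner units before scaling, of 144 on the noise array, against 49.5 on the baseline array. The other Bax probe, at chr7:52717122-52717181 and starting 4347 bases away, had 529 on the noise array, against 237 on the baseline array. Both probes were brighter on the noise array by more than the arrays differed in brightness. After each array was divided by its 75th percentile, which was 316 for noise and 278 for baseline, the log2 ratios of noise over baseline were 1.35 and 0.97, or 2.56-fold and 1.96-fold. Their median gave Bax a log2 ratio of 1.16, or 2.24-fold, at rank 100 of the 26528 genes measured, with 0.373% of genes higher. Past 2-fold were 1 of the 10 members, against 1.86% of all genes: 0.611% of genes were higher by that rule and 1.25% lower.

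With 1 array per group, the only errors that could be measured for this difference were technical. Repeated spots of 300 probes gave an SD of 0.069 for a log2 ratio, and different probes of a gene differed with an SD of 0.27, over 9348 genes. Each member probe was printed as 1 spot. The 2-fold call on Bax was lost where the brightest probe stood for the gene, with a log2 ratio of 0.97. It was also lost where the background was corrected by normexp with an offset of 50, with 0.83. The Bax ratio was above 0 under all 9 alternatives, but the authors' log2 table and both changes of the filter left its signals and probes, and so the ratio of 1.16, the same. Genes next to Bax in the RefSeq order did not share its size of difference. Ftl1, for a ferritin subunit, had log2 ratios of -0.13 and 0.01 at its 2 probes, and Dhdh, for a dihydrodiol dehydrogenase, had -0.31; both neighbours were named after their values were seen.

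Bak1 encodes BAK, the effector that resides on the mitochondrial membrane and can permeabilise it in place of BAX. Its 1 probe, at chr17:27156807-27156866, had a signal of 784 on the noise array, against 723 on the baseline array. The noise array was slightly brighter there before scaling, and the scaled log2 ratio was -0.07, or 0.956-fold, a value that was above 0 (0.16) only with spike-in scaling among the 9 alternatives. The log2 ratio of Bax stood 1.23 above that of Bak1, or 2.34-fold, and 0.86 above it with normexp.

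**Figure D1:**
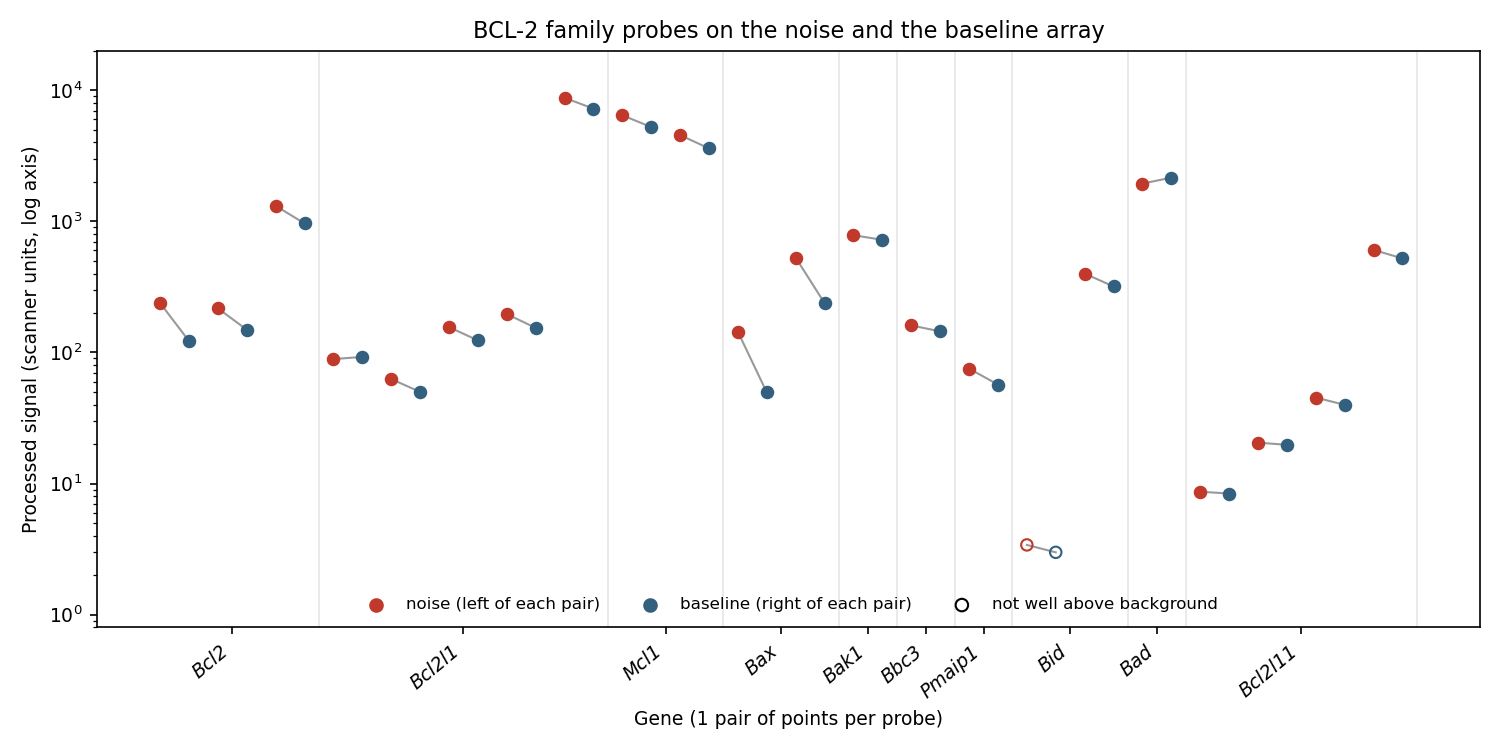
Processed signal (scanner units before scaling, log axis) of each of the 22 probes, in pairs with noise on the left and baseline on the right; open circles mark a probe not well above background. The steepest pairs are those of Bax, at 144 on the noise array against 49.5 on the baseline array and at 529 against 237, whereas the Bad pair and 1 Bcl2l1 pair are dimmer on the noise array.

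The 3 pro-survival members all had log2 ratios above 0, and none reached 2-fold. Bcl2 encodes the founding member of the family, which protects cells by binding BH3-only proteins and effectors. The Bcl2 probe shown above had 239 on the noise array, against 122 on the baseline array. A probe at chr1:108607310-108607369 had 217 on the noise array, against 149 on the baseline array. The last, at chr1:108434793-108434852, had 1314 on the noise array, against 963 on the baseline array. All 3 Bcl2 probes were brighter after noise, but by unequal amounts, with scaled log2 ratios of 0.78, 0.36 and 0.27 over probe starts spread across 174177 bases. Bcl2 as a gene had 0.36, the value of its middle probe, or 1.28-fold, at rank 2265, with 8.53% of genes higher. The probes were designed on different Bcl2 transcripts, and which form each reads was not analysed here.

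Bcl2l1 gives rise to BCL-XL, a pro-survival protein of neurons and many other long-lived cells, and by alternative splicing to a shorter form that promotes death. The 5 probes had scaled log2 ratios between -0.24 and 0.17, and 4 of them were above 0. The probe below 0, at chr2:152655730-152655789, had 89.0 on the noise array, against 92.5 on the baseline array. The brightest probe of the gene, at chr2:152606404-152606463, had 8753 on the noise array, against 7236 on the baseline array, a scaled log2 ratio of 0.09. The probe shown above had 156 on the noise array, against 124 on the baseline array, a ratio of 0.15. The gene's median was 0.14, or 1.1-fold, so apart from the 1 probe below 0 its probes lay within a narrow band. Which splice form each probe reads was not analysed here.

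Mcl1 encodes a short-lived pro-survival protein whose level follows its synthesis and degradation closely. Its probe at chr3:95467049-95467108 had 6446 on the noise array, against 5231 on the baseline array. The other, at chr3:95466855-95466914, had 4546 on the noise array, against 3599 on the baseline array. The scaled log2 ratios were 0.12 and 0.15, a gene value of 0.14 or 1.1-fold, and 26.3% of genes were higher. The difference between its probes was smaller than the SD of 0.27 between probes of a gene, as was the ratio itself.

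The 5 BH3-only members lay on both sides of 0, with 2 above and 3 below. Pmaip1 encodes NOXA, which binds mainly MCL-1 and is a target of p53. Its 1 probe had 75.3 on the noise array, against 56.9 on the baseline array. The scaled log2 ratio was 0.22, or 1.17-fold, and 0.08 with normexp. Bbc3 encodes PUMA, a p53 target that binds all the pro-survival proteins. It had 161 on the noise array, against 145 on the baseline array, at chr7:16903403-16903462. Its scaled log2 ratio was -0.03, or 0.977-fold, and it was above 0 (0.19) only with spike-in scaling among the alternatives. At this scaling the ratios of both genes were smaller than the SD between probes of a gene.

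Bid links death receptors to mitochondria: caspase-8 cleaves the protein, and the fragment activates BAX and BAK. The probe at chr6:120843464-120843523 had 399 on the noise array, against 319 on the baseline array, a scaled log2 ratio of 0.14 or 1.1-fold. The other Bid probe, at 3.41 on the noise array against 2.99 on the baseline array, was in neither case well above background and did not enter the gene's value. Bid is controlled largely at the protein level, which an RNA array does not read.

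Bad, whose product is held inactive by phosphorylation and 14-3-3 proteins while growth factors are present, was the member with the lowest log2 ratio. Its 1 probe, at chr19:7026323-7026382, had 1940 on the noise array, against 2155 on the baseline array. Bad was dimmer after noise even before scaling, and the scaled log2 ratio was -0.34, or 1.26-fold lower. With 13.3% of genes lower still, it lay inside the central 95% of all genes, which ran from -0.77 to 0.63. It was below 0 under all 9 alternatives, between -0.35 and -0.11.

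Bcl2l11 encodes BIM, which is induced when trophic support is lost and binds every pro-survival protein. The junction probe shown above had 20.5 on the noise array, against 19.8 on the baseline array, a scaled log2 ratio of -0.13. The brightest probe, at chr2:127988051-127988110, had 606 on the noise array, against 521 on the baseline array, a ratio of 0.03. The other probes had ratios of -0.14 and 0.00. All 4 Bcl2l11 probes thus lay near equality, and the gene value of -0.06 was above 0 under 4 of the 9 alternatives (stricter filter on dim probes, brightest probe, quantile normalization and spike-in scaling).

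**Figure D2:**
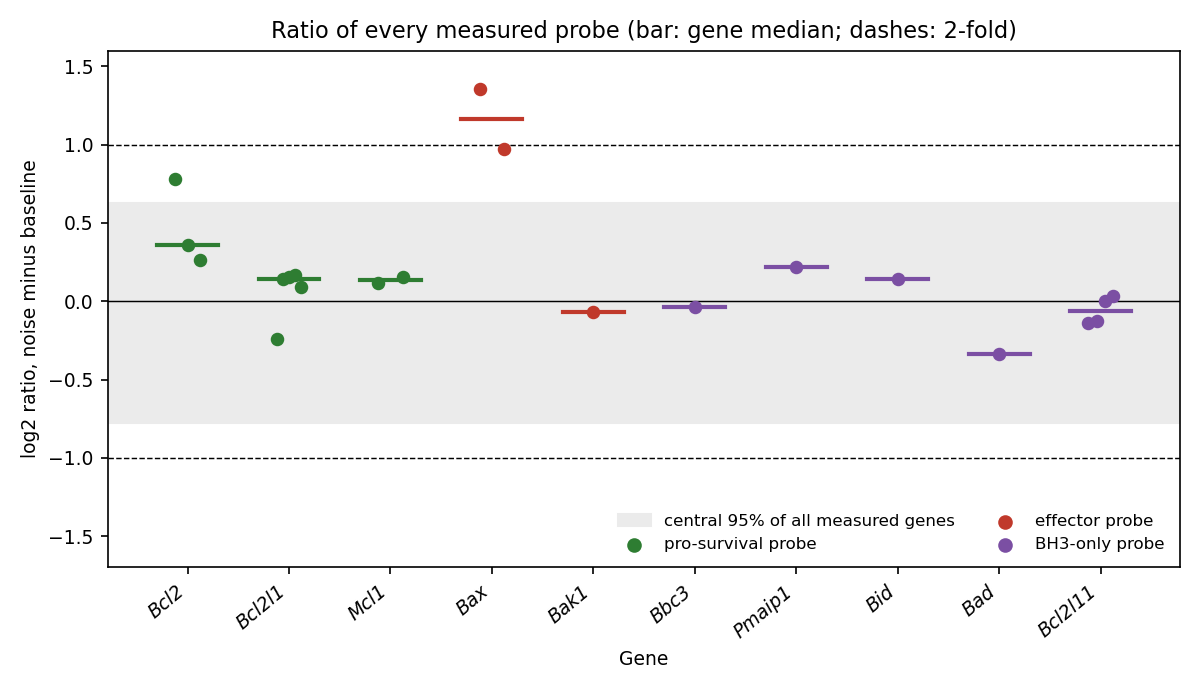
Scaled log2 ratio of noise over baseline for each measured probe (points) and each gene (short lines, median of its measured probes), coloured as pro-survival, effector or BH3-only, with dashed lines at 2-fold and the central 95% of all measured genes in grey. Bax is the one gene past a dashed line (1.16), under 2-fold with normexp (0.83) or its brightest probe (0.97), and Bad is lowest (-0.34); Bak1 and Bbc3 turn above 0 with spike-in scaling, and Bcl2l11 under 4 of the 9 alternatives.

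The 2 arms of the family, as far as the chosen members cover them, were set side by side by their medians, as a description with no test. Other pro-survival and pro-death relatives, described further below, were counted in neither arm. The 7 pro-death genes had a median log2 ratio of -0.03, with 3 genes above 0 and 4 below, and the 3 pro-survival genes had 0.14. The difference of the medians, pro-death minus pro-survival, was -0.18, and -0.13 with a stricter filter on dim probes or -0.08 with the brightest probe of each gene. In size this difference was smaller than the SD of 0.27 between probes of a gene. It does not move when an array is scaled by another constant. Without Bax the pro-death median was -0.05. Over all 26528 genes the median was -0.01, and 47.5% of genes were above 0, compared with 6 of the 10 members. Of the 21 measured member probes, 15 were above 0 and 6 below, counts that include several probes of the same gene. The sign of the pro-death median itself was not stable: it was above 0 under 4 of the 9 alternatives, up to 0.19 with spike-in scaling, which also moved the median of all genes to 0.21.

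The noise over baseline ratios of Bax and of its pro-survival partners were also set against each other, a difference of log2 ratios that does not depend on a constant that scales an array. The log2 ratio of Bax was above that of Bcl2 by 0.80, or 1.75-fold, above that of Bcl2l1 by 1.02, or 2.03-fold, and above that of Mcl1 by 1.03, or 2.04-fold. These gaps are between gene medians and depend on the probes: the lower Bax probe had 0.97 and the highest Bcl2 probe 0.78. With normexp the gaps were 0.56 (Bcl2), 0.72 (Bcl2l1) and 0.67 (Mcl1), and with the brightest probe 0.71, 0.88 and 0.85 in the same order, so that those to Bcl2l1 and Mcl1 were then under 2-fold. They are differences between transcripts and say nothing of the amount of either protein.

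**Figure D3:**
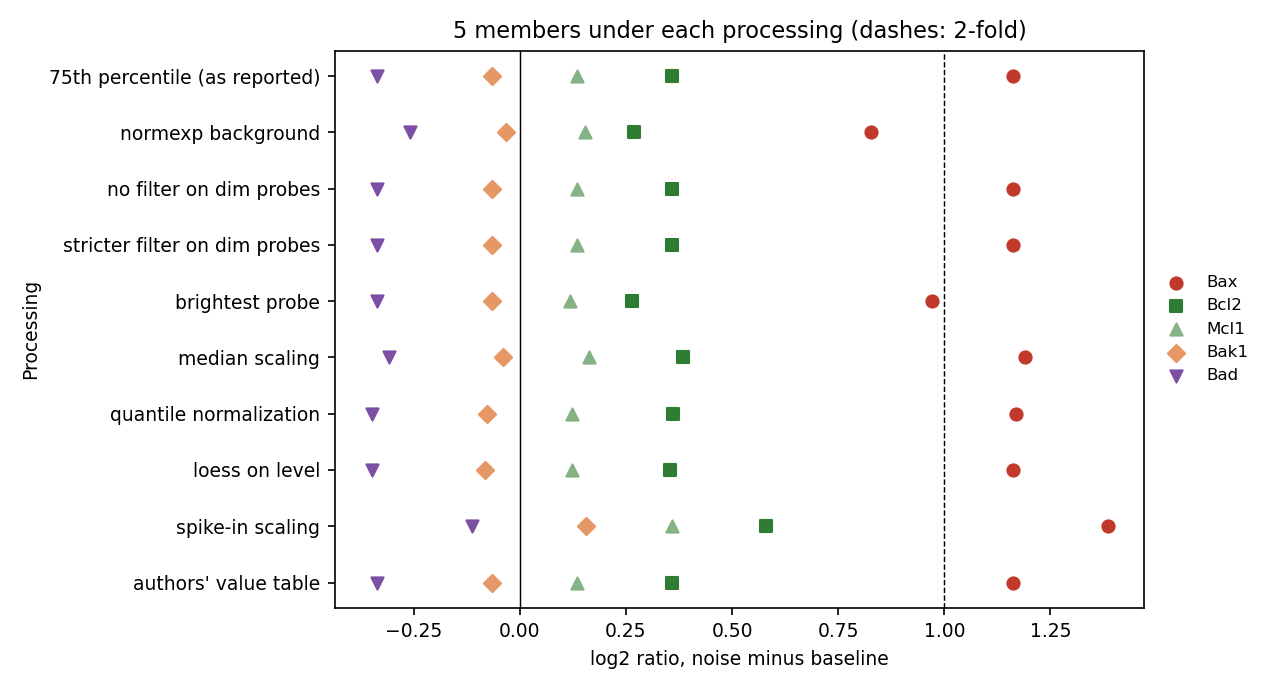
Scaled log2 ratio of noise over baseline for Bax, Bcl2, Mcl1, Bak1 and Bad, 1 marker shape per gene, as reported (top line) and under 9 alternatives, with a dashed line at 2-fold. Bax lies between 0.83 and 1.38 and Bad between -0.35 and -0.11 under the alternatives, whereas Bak1 is above 0 only with spike-in scaling.

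Of 16 other BCL-2 relatives outside the 10 members, 13 were measured, 8 above and 5 below 0, with a median of 0.05. None was past 2-fold, against 1.86% of all genes, and for lists as short as this one and those that follow a count of 0 is near that share. Bcl2a1c, one of the A1 gene copies, was at 0.53, with 33.7 on the noise array against 20.6 on the baseline array. Hrk, for the neuronal BH3-only protein Harakiri, was lowest, at -0.37, with 28.8 on the noise array against 32.7 on the baseline array. Bcl2l14 was at 0.33 and Bcl2l15 at 0.24. Bcl2l2, for a pro-survival protein, was at -0.08, with 1032 on the noise array against 963 on the baseline array. Bcl2a1d, another A1 gene, was at 0.20, and Bok, for a relative of BAX and BAK, at -0.23. Bcl2l2, Bcl2a1d and Bok were named after their values were seen. The Bcl2l10 probe was in neither sample well above background, and the names Bcl2a1a and Bcl2a1b were not matched on the array. The A1 genes are close copies, so their probes may share target RNA.

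Of 14 genes of the apoptosome, the caspases and the proteins released with cytochrome c, 7 were above and 7 below 0, with a median of -0.01, against a median of -0.01 over all genes, and none was past 2-fold, against 1.86% of all genes. The lowest was Endog, a mitochondrial nuclease, at -0.52, with 384 on the noise array against 486 on the baseline array. Diablo, which antagonises the IAP proteins, was at 0.15, and Dffa, the inhibitor of the caspase-activated nuclease, at -0.13. The IAP genes, which restrain caspases, were above 0 in 4 of 5 cases with a median of 0.12. Birc3 was at 0.37 with probes between -0.12 and 0.63, Xiap at 0.13, Birc6 at 0.12 and Birc5 at 0.09.

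Some regulators of single members lay farther from 0, and none was past 2-fold. Of 5 measured genes for MCL-1 turnover, out of 6 listed, 4 were below 0, with a median of -0.17. Usp9x, a deubiquitinase that stabilises MCL-1, was at -0.42, and the ligase components Fbxw7, Btrc and Huwe1 were at -0.20, -0.17 and -0.13. Of 13 kinases and 14-3-3 genes acting on BAD, 10 were above 0, with a median of 0.03. Sfn, for 14-3-3 sigma, was highest at 0.65, above the central 95% of all genes, with 1044 on the noise array against 584 on the baseline array. The kinase gene Pim3 was at 0.56, with 395 on the noise array against 235 on the baseline array, Pim2 was at 0.15 and Ywhae at -0.15. Of 9 genes for channels and shape of the mitochondrial membranes, 7 were below 0, with a median of -0.09; the 4 farthest from 0 were Opa1 at -0.18, Vdac3 at -0.16, and Mfn2 and Mfn1, both at -0.14. Of 7 adaptors of the death receptor route, 6 were above 0, with a median of 0.06. Mlkl and Ripk3, which drive necroptosis, were at 0.36 and 0.35, Cflar, which restrains caspase-8, at 0.26, and Tradd at 0.06.

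Trp53 encodes p53, which activates Bax, Bbc3 and Pmaip1 among other genes. Its 1 probe had 312 on the noise array, against 139 on the baseline array. The scaled log2 ratio was 0.98, or 1.97-fold, just short of the 2-fold rule, with 0.663% of genes higher. It reached 2-fold only with median and spike-in scaling (1.20 with spike-in probes) and was 0.77 with normexp. Of the 11 transcription factors and p53 regulators listed, 6 were above 0, with a median of 0.06: Jun was at 0.42, with 2408 on the noise array against 1586 on the baseline array, Trp73 at -0.28 and Myc at 0.27. Of 22 listed p53 targets outside the family, 14 were above and 8 below 0, with a median of 0.03, against 47.5% of all genes above 0. None was past 2-fold, against 1.86% of all genes. Trp53inp1 was at 0.50, with 726 on the noise array against 451 on the baseline array. Eda2r was at 0.38 from 1 measured probe of 3, a dim one with 10.1 on the noise array against 6.84 on the baseline array. Phlda3 was at -0.59, with 1842 on the noise array against 2439 on the baseline array. Tnfrsf10b was at -0.44 with probes between -1.12 and -0.14, and was also dim, with 9.43 on the noise array against 11.3 on the baseline array. Among the other listed targets, Cdkn1a and Mdm2 were at -0.30 and -0.02, whereas Btg2, Aen and Perp were at 0.38, 0.37 and 0.32. These genes were named after their values were seen, from the list with 14 above and 8 below 0.

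**Figure D4:**
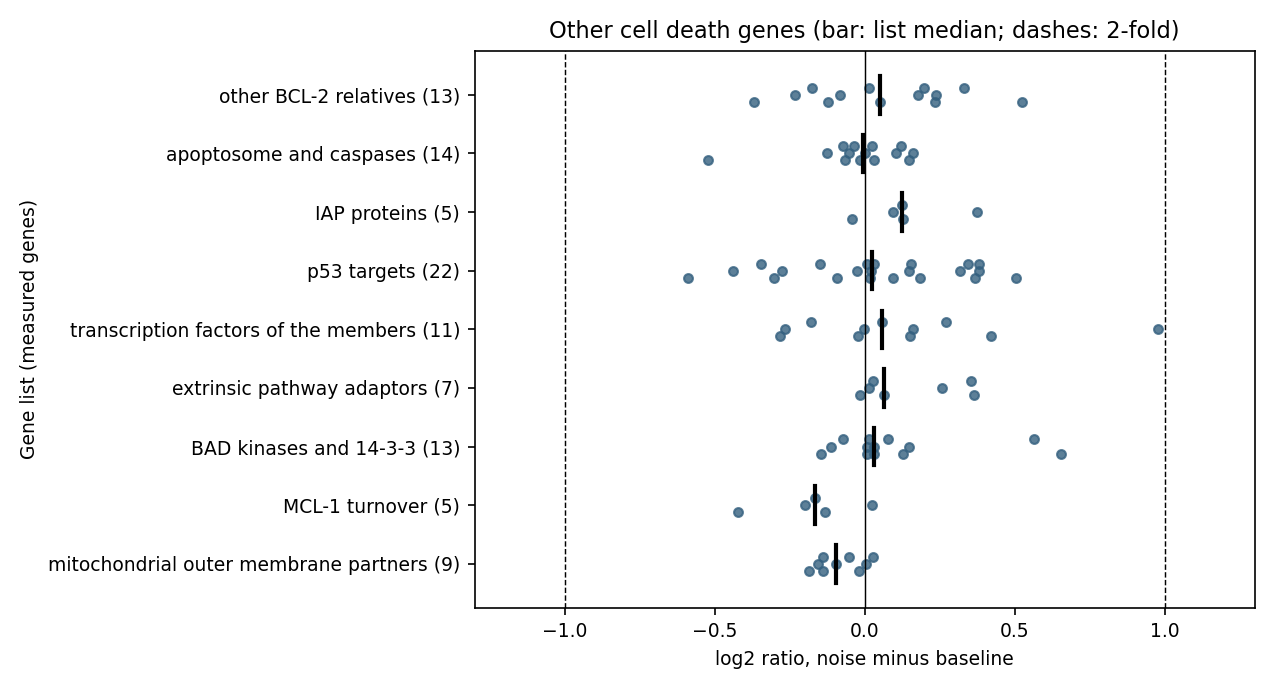
Scaled log2 ratio of noise over baseline for the measured genes of 9 related lists (points), with each list's median (black bar) and dashed lines at 2-fold. No point passes a dashed line, and the nearest is Trp53 (0.98), which reaches 2-fold with median scaling and spike-in scaling (1.20).

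The promoter of Bax is shown because Bax was the member past 2-fold. The sequence below is the 250 bases before the transcription start, from RefSeq on GRCm38.p6, minus strand, chr7:45466899-45467148, with the E-box CACGTG in capitals.
Bax promoter: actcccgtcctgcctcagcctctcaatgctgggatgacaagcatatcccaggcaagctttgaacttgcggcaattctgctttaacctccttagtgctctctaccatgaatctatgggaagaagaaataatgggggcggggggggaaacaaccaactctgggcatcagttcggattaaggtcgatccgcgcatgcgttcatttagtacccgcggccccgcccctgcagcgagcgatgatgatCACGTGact
In windows of 300 bases, from 250 before the start to 50 after it, CACGTG (the same on both strands) began 9 bases before the Bax start and again 35 bases after it. It was also in 1 window of Bbc3, 64 bases before the start, and in no window of the other 7 genes that had one. Of 32851 RefSeq windows, 7.15% hold CACGTG. The AP-1 motif TGANTCA, searched on both strands, was in none of the 15 windows of the 9 genes and in 7.81% of all windows. These matches describe letters in a window and not binding.

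Markers of tissues around the cochlea differed between the samples. All 18 cochlear markers were measured on both arrays, 13 of them above 0, with a median log2 ratio of 0.25 and summed levels (in units of the array's 75th percentile) of 170 in noise, against 141 in baseline. Most of both sums came from Coch and Gjb2, at 20264 and 14268 on the noise array against 14059 and 10725 on the baseline array. The cochlear marker farthest from 0 was Slc26a5, at -0.75, from a dim probe with 5.62 on the noise array against 8.35 on the baseline array. All 10 skeletal muscle markers were below 0 (median -0.97, sums 50.1 in noise, 68.9 in baseline). Most of each sum came from Pvalb, with 13420 on the noise array against 15093 on the baseline array. Of the 10, Pvalb lay closest to 0, at -0.35. All 8 adipocyte markers (median -1.46, sums 14.8 in noise, 65.0 in baseline) and all 8 central glia markers (median -0.99, sums 17.5 in noise, 35.1 in baseline) were also below 0. So were 6 of 7 measured central neuron markers (median -2.07, sums 2.59 in noise, 5.77 in baseline). Sums cover every listed gene on the array with all its probes, so the last also include Slc6a5, not measured on both arrays. At least 2-fold lower were 5 of 10 muscle, 6 of 8 adipocyte, 4 of 8 central glia and 4 of 7 central neuron markers, against 1.25% of all genes. Lymphocyte markers were above 0 in 8 of 10 cases (median 0.51, sums 27.96 in noise, 17.8 in baseline). Of the 10 lymphocyte markers, 1 was at least 2-fold higher (Vpreb1, at 1.08), against 0.611% of all genes. Neutrophil markers (6 of 8 above 0, median 0.06, sums 835 in noise, 858 in baseline) and macrophage markers (4 of 7 above 0, median 0.03, sums 13.90 in noise, 13.96 in baseline) had sums that were close to even, but not every gene in them was: Cd163 had a log2 ratio of 1.16 (0.71 and 1.61 at its probes), past 2-fold, and Cxcr2 had 0.82. The part of these tissues in the values of Bax, Bcl2, Bad and the other members was not tested.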

How the data were processed

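Cochlear RNA of 1 noise and 1 baseline sample was read on 1-colour Agilent arrays from the same slide and scan, per the file headers. Spot intensity on a linear scale is what the authors' deposited scanner files give, made with Feature Extraction 11.5.1.1, which had subtracted background, per the file headers. The authors also deposited a table in log2; its columns matched the log2 processed signal of the same array less a constant of 8.30 (noise) or 8.12 (baseline), with no centring per gene, and was used as an alternative. The medians of its columns were -2.81 for noise and -2.79 for baseline, and the direction of the ratio was set here.

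Outlier-flagged spots (77 noise, 58 baseline) were left out, and none was saturated. Of 56605 non-control probes, 75.3% were well above background in noise and 75.2% in baseline, and 41647 were so on both. The log2 processed signal minus the array's 75th percentile was the level, and the value of a gene was the median, over its measured probes, of noise minus baseline. The number of arrays limits the precision, and with 1 array per group no p-value was computed and 2-fold was the size rule. The steps, run in Python 3.11.15 with numpy 2.4.6, pandas 2.3.3, statsmodels 0.14.6 and matplotlib 3.10.9, and in R 4.3.3 with limma 3.58.1 for normexp, were tested on simulated data.

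Array names matched RefSeq (GRCm38.p6) for the 19 member probes whose accession it holds. The members, gene lists and alternatives were chosen with earlier results of these data known. All members and probes, and up to 4 genes with the largest absolute log2 ratio in each pathway list, were named, except 1 that is not reported here; the transcription factor list stood outside that rule, and its named genes were chosen after their values were seen. Alternatives changed the background correction, the filter, the choice of probe, the scaling and the source of the values. The authors' table repeats the scaling to the 75th percentile, so it could not move a ratio. A filter or choice of probe moves a gene only where it changes the probes used. The alternatives for Trp53 and for the gaps between Bax and other members were added after seeing the data.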

Additional observations from a re-analysis of the deposited data

How the results depend on the processing

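No paired analysis was possible because there was 1 array per group, which also left no replicate to leave out. Bax was above 0 under all 9 alternatives (0.83 to 1.38 on the log2 scale) and past 2-fold under 7. Of these 7, the authors' table and both changes of the filter left Bax at 1.16, since its signals and probes stayed the same. Bax was 0.83 with normexp, whose offset of 50 pulls dim probes toward equality by construction, and 0.97 with the brightest probe. The number of members past 2-fold was thus 0 with normexp or the brightest probe and 1 under the others. The pro-survival median stayed above 0 (0.12 to 0.37) and the pro-death minus pro-survival difference below 0 (-0.18 to -0.08), while the pro-death median ran from -0.03 to 0.19. Median scaling, spike-in scaling and the authors' table could not move the pro-death minus pro-survival difference. Against 162 genes at least 2-fold higher and 332 lower, normexp gave 56 and 74, no filter on dim probes 672 and 1296 of 37067 genes, a stricter filter 103 and 154 of 20290 genes, and spike-in scaling 351 and 186. Of genes past 2-fold, 32.8% were higher, against 43.1% with normexp and 65.4% with spike-in scaling, whose 8 probes ranged from -0.20 to 0.32 before scaling. The filters change how many genes are counted; for the spike-in values the cause was not tested. Signal over background set a limit for 1 of the 22 member probes, a Bid probe that the filter left out, and for dim probes: with normexp the Bax splice-junction probe was at 0.82 and the brighter Bax probe at 0.84.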
